A study of Saccharomyces cerevisiae with 46 samples.

Results

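The hotspots described here are the meiotic DNA double-strand break (DSB) hotspots of budding yeast that lie within 60 kb of an end of the 13 longer chromosomes, that is, of all chromosomes except I, III and VI. They number 262 of the 3569 hotspots called in the whole genome, and they were found at 25 of the 26 ends. DSBs were mapped by CC-seq, in which DNA ends still linked to Spo11, the enzyme that cuts them, are enriched and sequenced. Diploid cells of the SK1 strain were collected 6 h into meiosis for 3 genotypes, with 2 libraries each, grouped by sample title, since the genotype entry of the labels names another genotype for all 6 libraries. In rad50S hop1-loop2 pch2 cells, the hop1-loop2 allele, which replaces the basic residues of a nucleosome-contacting loop of Hop1 by alanine at the endogenous locus, was combined with deletion of PCH2 by kanMX. This strain carries ho::LYS2. In rad50S hop1-loop2 cells PCH2 was intact, and the other markers of this strain are not given in the sources used here. The rad50S cells carried wild-type HOP1 and PCH2, together with ho::hisG and the HIS4::LEU2 insertion on chromosome III, and are the control. All 3 genotypes carry rad50S, which blocks DSB repair and keeps Spo11 on the ends, so no library shows breaks in cells that repair them. The study's methods call the CC-seq libraries of a genotype independent biological replicates. The study's list of these libraries names rad50S and rad50S hop1-loop2 but not rad50S hop1-loop2 pch2.

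Spo11 cuts chromatin loops that are tethered to a proteinaceous axis, and the axis proteins Red1 and Hop1 promote its activity. Hop1 is a HORMA-domain protein that recruits the break machinery and the checkpoint kinase Mek1, and Pch2 is an AAA+ ATPase that takes Hop1 off chromosomes once homologs synapse. Sequence next to telomeres is poor in DSBs in wild-type cells, whereas the broader end-adjacent regions behind it hold on to Hop1 and keep breaking late in prophase.

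Hotspots were called on the mean of both strands over the rad50S hop1-loop2 and rad50S libraries. The profile was smoothed over 201 bp, stretches above 0.2 HpM (hits per 1000000 nuclear hits) per bp and at least 25 bp long were kept, and gaps below 200 bp were closed. The rad50S hop1-loop2 pch2 libraries had no part in the calling. Distance was counted from the hotspot centre to position 1 or to the last position with a hit in any library. The members nearest to the limit lay 59.97, 59.95 and 59.93 kb from an end and had 262, 99.0 and 25.5 HpM in rad50S hop1-loop2 pch2, 495, 147 and 38.4 HpM in rad50S hop1-loop2, and 287, 154 and 114 HpM in rad50S. The nearest hotspots outside it, at 60.67, 61.21 and 61.92 kb, had 15.7, 9.48 and 66.9 HpM in rad50S hop1-loop2 pch2, 33.6, 18.6 and 78.2 HpM in rad50S hop1-loop2, and 75.8, 87.3 and 119 HpM in rad50S. Positions are in the SK1 assembly ASM205788v1, and hotspots are given without genes because no annotation of that assembly was used here.

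The libraries of rad50S hop1-loop2 pch2 stood apart from the others in depth and background. They held 3614810 and 1026669 hits, against 6277735 and 7985420 in rad50S hop1-loop2 and 7730583 and 7577582 in rad50S. Replicate 2 of rad50S hop1-loop2 pch2 had 63.2% of its hits in hotspots and 33.1 HpM per kb outside them, and replicate 1 had 84.3% and 14.1 HpM per kb. The other libraries had between 87.9% and 89.4% in hotspots and between 9.52 and 10.9 HpM per kb outside. HpM is scaled to 1000000 hits in each library, so a genome-wide change in the number of breaks cannot be seen, and each comparison is relative to the rest of the same library. The median end hotspot was covered by 216 and 44.0 reads in rad50S hop1-loop2 pch2, 291 and 348 reads in rad50S hop1-loop2, and 568 and 580.0 reads in rad50S. Every end hotspot had at least 17 reads in rad50S, while 32 of the 262 had under 10 reads in replicate 2 of rad50S hop1-loop2 pch2. On the log2 scale the replicates correlated over the end hotspots with r = 0.917 in rad50S hop1-loop2 pch2, 0.988 in rad50S hop1-loop2 and 0.969 in rad50S. This is a description over 262 hotspots that share the 6 libraries.

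Hotspots were sparser in the outermost 30 kb than farther in, though density did not rise at every step. There were 7.31 hotspots per 100 kb in the outermost 10 kb, 9.23 between 10 and 20 kb, 15.8 between 20 and 30 kb, 20.0 between 30 and 40 kb, 25.8 between 40 and 50 kb and 22.7 between 50 and 60 kb. Outside the set there were 17.7 between 60 and 70 kb and 36.2 between 110 and 120 kb. Positions with a hit in any library were also fewer near the ends, at 9.81% in the outermost 10 kb and 18.1% between 110 and 120 kb, and the part of repeated sequence in this was not tested. An end held between 4 and 17 hotspots with a median of 10, whereas the 162 interior windows of about 60 kb on the same chromosomes held a median of 19 (from 4 to 27). The right end of chromosome IX was the end without a hotspot. The hotspot nearest to its end lay within 10 kb at 13 ends and within 20 kb at 21 ends, and the farthest first hotspots were at 27.3 kb (IV right) and 29.3 kb (V left).

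By its median length, an end hotspot spanned 156 bp and one of the interior of the same chromosomes 210.0 bp. End hotspots were also weaker in each genotype. In rad50S hop1-loop2 pch2 the medians were 59.8 and 42.9 HpM at the ends and 93.5 and 69.2 HpM in the interior. In rad50S hop1-loop2 they were 46.4 and 43.6 HpM at the ends and 100.0 and 97.3 HpM in the interior, and in rad50S 73.5 and 76.5 HpM at the ends and 115 and 116 HpM in the interior. The share of hits on the Watson strand (median 50.7% at the ends and 50.3% in the interior) and the share at the single most hit position of a hotspot (median 12.1% and 11.0%) differed little between the sets. Over the 262 end hotspots the strength rose with distance by rank correlations of 0.11 in rad50S hop1-loop2 pch2, 0.22 in rad50S hop1-loop2 and 0.17 in rad50S, given as a description, since neighbouring hotspots share their end.

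In rad50S hop1-loop2, end hotspots lost signal relative to rad50S, and the loss was larger near the tip. Of the 262 hotspots, 161 (61.5%) were lower by limma on log2(HpM + 1) with Benjamini-Hochberg adjusted p below 0.05, against 43.2% of all 3569 hotspots tested. Another 56 (21.4%) were higher, against 34.2% of all hotspots, and 45 did not pass the threshold. The median difference was -0.76 at the ends and -0.16 over all hotspots, and the middle 50% of end hotspots lay between -2.01 and 0.23. Both rad50S hop1-loop2 libraries were below both rad50S libraries at 169 end hotspots (64.5%, against 48.3% of all hotspots) and above them at 64 (24.4%, against 39.3%). Centring each library on its median hotspot shifted the median over all hotspots to 0.17 and left 132 end hotspots lower and 70 higher. Summed over all end hotspots, the libraries had 31565 and 29731 HpM in rad50S hop1-loop2 and 37842 and 38967 HpM in rad50S.

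As a share of all signal in hotspots, the ends held 3.43% ± 0.141 in rad50S hop1-loop2 and 4.33% ± 0.143 in rad50S (SD, n = 2 each), a ratio of 0.792 ± 0.0418 (SD). Both rad50S hop1-loop2 libraries were below both rad50S libraries, and the two-sided exact permutation p was 0.333, the smallest that 2 libraries against 2 can give. Without the right end of chromosome IV, which moved the other way, the shares were 2.69% and 4.13% and the ratio was 0.652 ± 0.0405. This end was left out after its values had been seen.

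The change depended on distance. Within 30 kb of an end, the share of hotspot signal was 0.538% and 0.500% in rad50S hop1-loop2 and 1.00% and 1.02% in rad50S, a ratio of 0.513 ± 0.0268 (exact permutation p = 0.333). From 30 to 60 kb it was 3.00% and 2.83% in rad50S hop1-loop2 and 3.23% and 3.41% in rad50S, a ratio of 0.877 ± 0.0489 (exact permutation p = 0.333). Between 60 and 120 kb, outside the set, the libraries overlapped, with 12.4% in both rad50S hop1-loop2 libraries and 11.7% and 12.5% in rad50S. The relative loss was thus larger in the outer stretch, which held no more than 1.02% of hotspot signal in any of these libraries. The inner stretch includes the strongest hotspot of the right end of chromosome IV. That hotspot had 5133 and 5179 HpM in rad50S hop1-loop2 and 1266 and 1197 HpM in rad50S. The share of the inner stretch without it was not computed. By steps of 10 kb from the tip, the ratio of shares was 0.448, 0.573, 0.508, 0.846, 1.05 and 0.647.

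Mean levels per hotspot were compared in steps of 10 kb. In the outermost 10 kb, the 19 hotspots averaged 27.7 and 24.8 HpM in rad50S hop1-loop2 and 59.3 and 57.1 HpM in rad50S. Between 20 and 30 kb, the 41 hotspots averaged 77.9 and 74.8 HpM in rad50S hop1-loop2 and 147 and 151 HpM in rad50S. Between 40 and 50 kb, the 67 hotspots averaged 206 and 202 HpM in rad50S hop1-loop2 and 187 and 197 HpM in rad50S. This higher mean rested on the strongest hotspot of the right end of chromosome IV. Without it, a choice made after its values were seen, the other 66 averaged 132 and 126 HpM in rad50S hop1-loop2 and 171 and 182 HpM in rad50S. Of all 67, 40 were lower and 18 higher (median log2 difference -0.65), against 43.2% lower and 34.2% higher among all hotspots. Between 50 and 60 kb, the 59 hotspots averaged 99.2 and 96.9 HpM in rad50S hop1-loop2 and 144 and 156 HpM in rad50S. Distance alone did not order the 262 single differences closely (rank correlation 0.14).

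**Figure D1:**
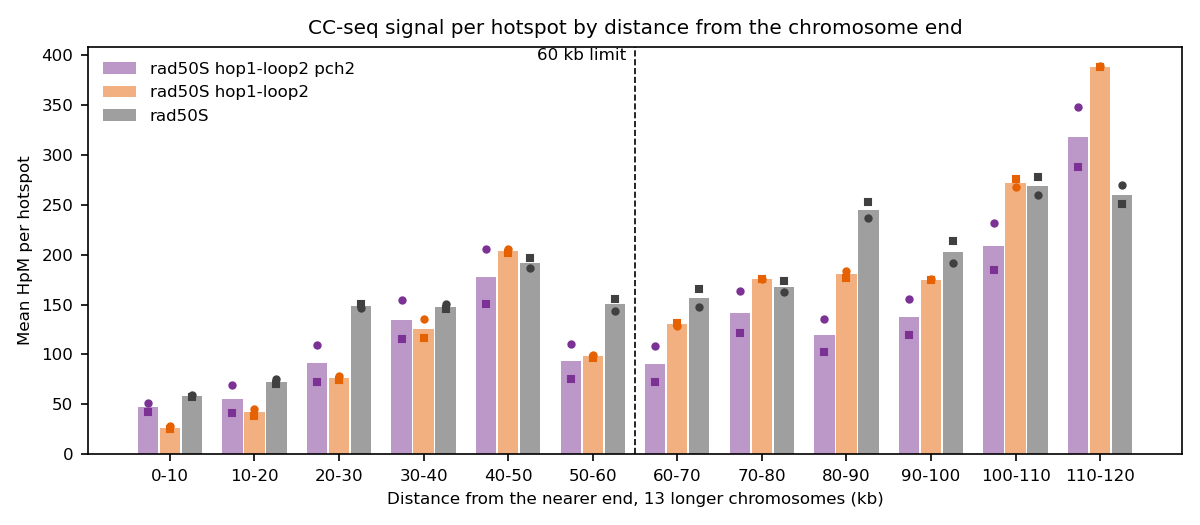
Mean HpM per hotspot in 10 kb steps from the nearer end of the 13 longer chromosomes (bars, mean of 2 libraries, with circles for replicate 1 and squares for replicate 2). In the outermost 10 kb the rad50S hop1-loop2 bar is at 26.2, below rad50S hop1-loop2 pch2 at 47.0 and rad50S at 58.2, whereas from 110 to 120 kb it is the highest at 388.

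The decrease was also counted over distance. Of all 3569 hotspots, 43.2% were lower and 34.2% were higher in rad50S hop1-loop2 than in rad50S, with a median difference of -0.16. Within 20 kb of an end, 32 of 43 hotspots were lower and 6 were higher in rad50S hop1-loop2, with a median difference of -1.36. From 20 to 40 kb, 57 of 93 were lower (61.3%) and 21 were higher (22.6%, median -0.83). From 40 to 60 kb, 72 of 126 were lower (57.1%) and 29 were higher (23.0%, median -0.64). Between 60 and 120 kb, outside the set, 46.5% of 480 were lower and 31.5% were higher (median -0.32). All hits in 10 kb bins, hotspot or not, gave the same direction, with 95 of the 156 end bins lower (60.9%, against 48.0% of all 1224 bins) and 26 higher (16.7%, against 31.5%). Hits outside hotspots were fewer as well, at 4.63 and 4.28 HpM per kb in the outermost 10 kb in rad50S hop1-loop2 and 6.82 and 7.74 HpM per kb in rad50S.

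Most ends fell, and 3 rose. When the hotspot signal of each end was summed, 18 of the 25 ends were lower (72.0%, against 45.0% of the 202 windows of about 60 kb tested over the genome) and 3 were higher (12%, against 33.7%). Both libraries of rad50S hop1-loop2 were below both of rad50S at 19 ends (49.5% of all windows) and above them at 4 (38.6% of all windows). Chromosome XIV had the end that fell most, on its right, with 285 and 289.9 HpM in rad50S hop1-loop2 against 1476 and 1984 HpM in rad50S (log2 difference -2.57 ± 0.16 SE, limma adjusted p = 6.12e-12). The left end of chromosome XI had 629.5 and 583 HpM in rad50S hop1-loop2 and 2491 and 2513 HpM in rad50S (-2.04 ± 0.12, limma adjusted p = 6.12e-12). Both ends fell on chromosomes V, VII, VIII, X, XI, XII and XIV. The left end of VII kept 0.285 of its rad50S signal and the right end of XII kept 0.297, whereas the left end of XIII kept 0.769 and the left end of V kept 0.821.

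The ends that rose were the right ends of chromosomes IV, XIII and II. On IV the right end had 6663 and 6645 HpM in rad50S hop1-loop2 and 1836 and 1859.7 HpM in rad50S, a ratio of 3.60 (log2 difference 1.85 ± 0.09, limma adjusted p = 1.90e-13). On XIII it had 1896 and 1703 HpM in rad50S hop1-loop2 and 763 and 752 HpM in rad50S, a ratio of 2.38 (limma adjusted p = 1.18e-08). On II it had 1044 and 1093 HpM in rad50S hop1-loop2 and 572 and 675 HpM in rad50S, a ratio of 1.71 (limma adjusted p = 4.07e-05). The opposite ends of these chromosomes fell, with ratios of 0.641 for IV left, 0.769 for XIII left and 0.436 for II left. The remaining 4 ends did not pass the threshold, namely IX left (ratio 0.969), XV left (0.974), XV right (0.884) and XVI left (1.09).

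**Figure D2:**
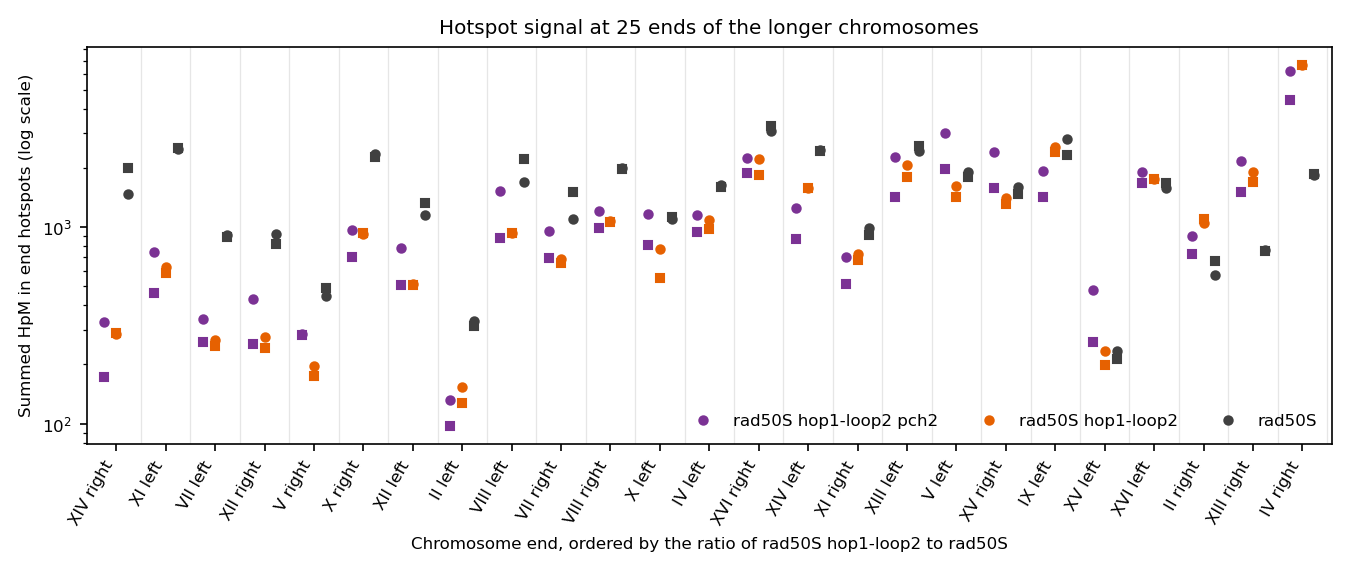
Summed HpM in hotspots within 60 kb of each end (log scale), with circles for replicate 1 and squares for replicate 2 of each genotype, and ends ordered by the ratio of rad50S hop1-loop2 to rad50S. The ratio runs from 0.166 at XIV right to 3.60 at IV right, and the rad50S hop1-loop2 points lie below the rad50S points at most ends and above them at XVI left, II right, XIII right and IV right.

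Among hotspots that averaged at least 50 HpM, those with the 6 largest decreases came from 5 ends and lay between 24.6 and 55.8 kb from the tip. The hotspot chrXVI:922093-922326, at 24.6 kb, had 8.60 and 5.51 HpM in rad50S hop1-loop2 and 140.4 and 185 HpM in rad50S (log2 difference -4.36 ± 0.24, limma adjusted p = 1.76e-06). The hotspot chrVIII:34899-35115, at 35.0 kb, had 22.6 and 12.0 HpM in rad50S hop1-loop2 and 277 and 357 HpM in rad50S (-4.17 ± 0.28, limma adjusted p = 3.25e-06). The hotspot chrXIV:763151-763342, at 28.7 kb, had 11.9 and 10.0 HpM in rad50S hop1-loop2 and 211 and 206 HpM in rad50S (-4.13 ± 0.17, limma adjusted p = 9.05e-07). In these the rad50S hop1-loop2 mean was between 0.0434 and 0.0546 of the rad50S mean. The other large decreases were at chrXI:40507-40764 (34.6 and 35.9 HpM in rad50S hop1-loop2, 452 and 564 HpM in rad50S), chrXVI:906162-906376 (25.5 and 22.0 HpM, against 277 and 421 HpM in rad50S) and chrXII:998031-998695 (28.7 and 33.1 HpM, against 366 and 415 HpM in rad50S). These hotspots ranked between 431 and 1405 of 3569 by strength in rad50S and between 2772 and 3488 in rad50S hop1-loop2. They were chosen for large decreases and a mean of at least 50 HpM, so this order of ranks follows from the choice.

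The 6 largest increases all came from the right end of chromosome IV. The weak rad50S hotspot chrIV:1458119-1458319, at 28.7 kb, had 169 and 153 HpM in rad50S hop1-loop2 and 15.5 and 6.73 HpM in rad50S (log2 difference 3.84 ± 0.32, limma adjusted p = 9.85e-06). At the same end chrIV:1451468-1452004, at 35.1 kb, had 341 and 326 HpM in rad50S hop1-loop2 and 36.5 and 20.3 HpM in rad50S (3.57 ± 0.25, limma adjusted p = 4.21e-06). Weak rad50S hotspots also rose nearby, at 27.3 kb (8.33-fold), 32.1 kb (5.62-fold) and 46.9 kb (6.46-fold). The strongest hotspot of this end, chrIV:1438083-1438684 at 48.5 kb, had 5133 and 5179 HpM in rad50S hop1-loop2 and 1266 and 1197 HpM in rad50S, a 4.19-fold difference (2.07 ± 0.13, limma adjusted p = 2.52e-06). It ranked 98 of all 3569 hotspots in rad50S and 6 in rad50S hop1-loop2. At the remaining 4 hotspots of this end, those at 36.2 and 54.5 kb were higher and those at 56.4 and 59.3 kb did not pass the threshold.

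The hotspot chrIV:1438083-1438684 took a large part of the signal near the ends. It was the strongest end hotspot in every genotype and held 13.1% of the end signal in rad50S hop1-loop2 pch2, 16.8% in rad50S hop1-loop2 and 3.21% in rad50S. The 10 strongest end hotspots together held 36.2% in rad50S hop1-loop2 pch2, 40.2% in rad50S hop1-loop2 and 21.6% in rad50S. The strongest and the weakest end with hotspots differed 46.3-fold in rad50S hop1-loop2 pch2, 47.4-fold in rad50S hop1-loop2 and 14.2-fold in rad50S. The strongest end was IV right in both hop1-loop2 genotypes, with a mean of 5303 HpM in rad50S hop1-loop2 pch2 and 6654 HpM in rad50S hop1-loop2. The next strongest ends had 2495 HpM (V left) and 2490.3 HpM (IX left) in the same order. With IV right included, the signal near the ends was by these measures spread less evenly in both hop1-loop2 genotypes than in rad50S. The measures without IV right were not computed.

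The other strong end hotspots moved in both directions. At chrXVI:915840-916892, 30.5 kb from the end, rad50S hop1-loop2 had 1506 and 1208 HpM and rad50S had 841 and 603 HpM (log2 difference 0.92 ± 0.19, limma adjusted p = 0.00209). At chrXIII:887314-888002, 35.8 kb from the end, rad50S hop1-loop2 had 966 and 789 HpM and rad50S had 272 and 227 HpM (1.81 ± 0.16, limma adjusted p = 1.59e-05). At chrIX:44020-44502, 44.3 kb from the end, rad50S hop1-loop2 had 1345 and 1316 HpM and rad50S had 956 and 754 HpM (0.65 ± 0.15, limma adjusted p = 0.00441). At chrXV:1007797-1008404, 45.8 kb from the end, rad50S hop1-loop2 had 616 and 565 HpM and rad50S had 242 and 267 HpM (1.21 ± 0.14, limma adjusted p = 6.67e-05). All of these were higher in rad50S hop1-loop2, and their libraries did not overlap. The hotspots here were chosen as the 5 strongest of a genotype, so their directions partly follow from the choice. Those at chrXVI:915840-916892 and chrXIII:887314-888002 were chosen in both hop1-loop2 genotypes, and chrXV:1007797-1008404 in rad50S hop1-loop2 pch2 alone. By contrast, chrIX:26937-27502 and chrX:704776-705164, given next, were chosen in rad50S alone. Strong rad50S hotspots that were lower in the mutant included chrIX:26937-27502, with 248 and 189.8 HpM in rad50S hop1-loop2 and 916 and 738 HpM in rad50S. A second was chrX:704776-705164, with 404 and 426 HpM in rad50S hop1-loop2 and 848 and 818 HpM in rad50S. At chrV:40212-40718, 826 and 629.6 HpM in rad50S hop1-loop2 stood against 1057 and 1061 HpM in rad50S (-0.55 ± 0.16, limma adjusted p = 0.0124). That call was lost without replicate 2 of rad50S hop1-loop2 (-0.36, limma adjusted p = 0.172) and with libraries centred on the median hotspot (-0.22, limma adjusted p = 0.229). At chrXVI:48802-49453 the difference of 0.16 ± 0.13 did not pass the threshold, with 755 and 781 HpM in rad50S hop1-loop2 and 661 and 713 HpM in rad50S.

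Hotspots of a single end could move apart. At 14 ends there were both lower and higher hotspots in rad50S hop1-loop2, at 10 ends lower hotspots alone, and at the right end of IV higher hotspots alone. The difference between the largest and the smallest change at an end had a median of 2.83 on the log2 scale and ranged from 1.66 (V left) to 5.80 (VIII left). An example is XVI right, where the hotspot at 24.6 kb fell by 4.36 on the log2 scale, that at 30.5 kb was 1.88-fold higher, and that at 40.6 kb fell by 3.79. At XIV right all 11 hotspots were lower, with differences from -4.13 to -1.63, and at VII left all 8 were lower.

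Close neighbours mostly moved together. Among neighbouring end hotspots that both passed the threshold, 41 of 42 pairs less than 2 kb apart had the same direction, as did 55 of 63 pairs between 2 and 5 kb apart and 48 of 60 pairs farther apart. In the interior of the same chromosomes, the shares were 95.9%, 83.4% and 70.7%, against 97.6%, 87.3% and 80.0% at the ends. These shares are a description, since neighbours share their end and directions were more unequal at the ends.

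**Figure D3:**
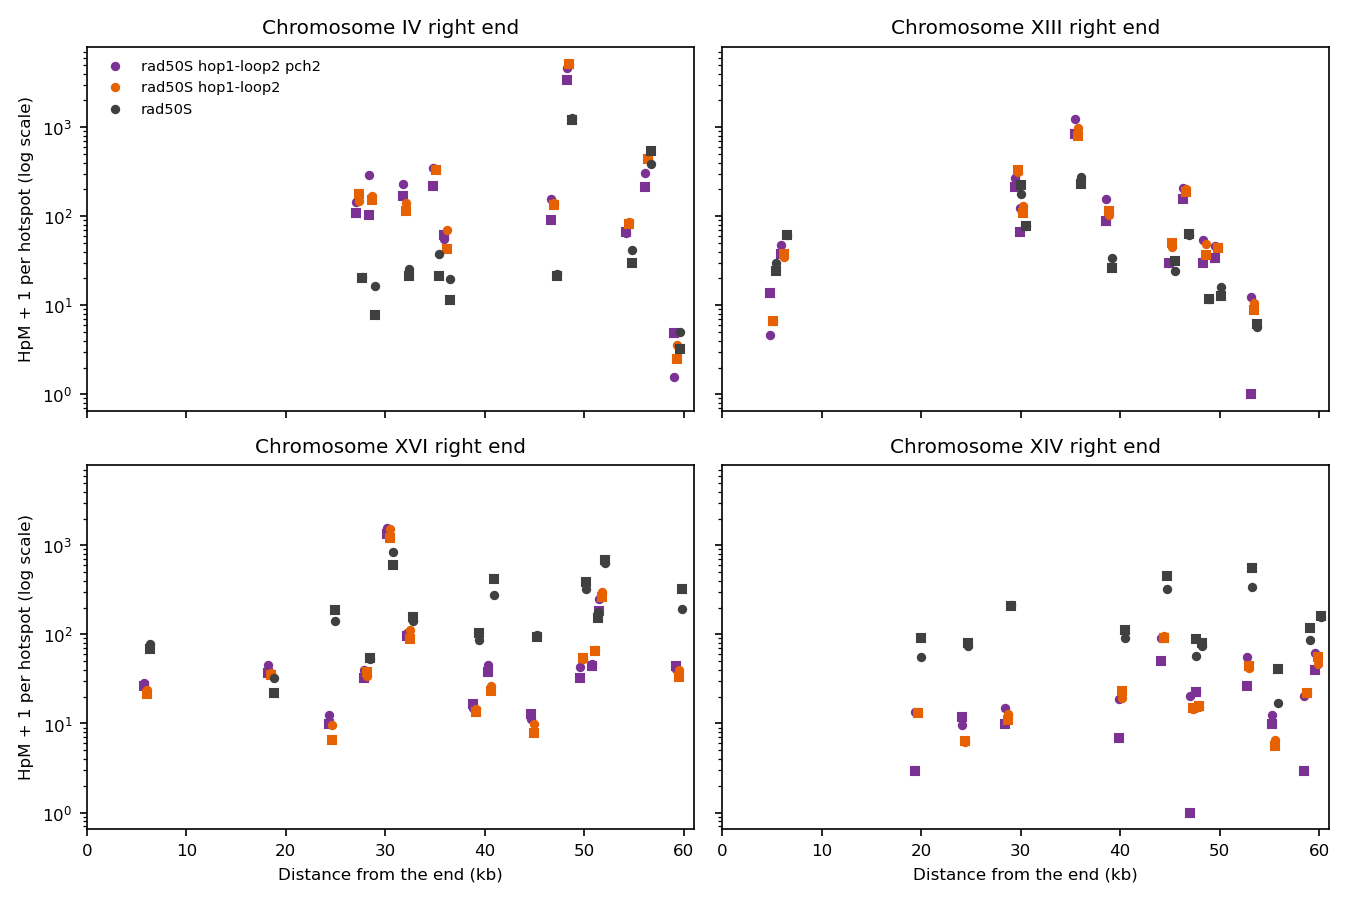
HpM + 1 of each hotspot (log scale) against its distance from the end, for the right ends of chromosomes IV, XIII, XVI and XIV, with circles for replicate 1 and squares for replicate 2. At XIV all 11 hotspots have rad50S hop1-loop2 below rad50S, at IV the hotspots from 27.3 to 54.5 kb have it above, and at XVI the hotspot at 30.5 kb is above rad50S between neighbours that are below it.

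Compared with rad50S, the total of rad50S hop1-loop2 pch2 near the ends depended on the scale. In HpM the end hotspots summed to 35447 and 25319.7 in rad50S hop1-loop2 pch2 and 37842 and 38967 in rad50S, and as a share of all nuclear hits the ratio was 0.791. The ends held 4.21% and 4.01% of hotspot signal in rad50S hop1-loop2 pch2 and 4.23% and 4.43% in rad50S, a ratio of 0.948 ± 0.0449 (exact permutation p = 0.333). Without the right end of chromosome IV the ratio was 0.822 ± 0.0393, with 3.47% and 3.31% against 4.03% and 4.22% in rad50S. Within 30 kb of an end the shares were 0.844% and 0.758% in rad50S hop1-loop2 pch2 and 1.00% and 1.02% in rad50S, a ratio of 0.792 ± 0.0606. From 30 to 60 kb the libraries overlapped, with 3.36% and 3.25% in rad50S hop1-loop2 pch2 and 3.23% and 3.41% in rad50S. This stretch includes chrIV:1438083-1438684, with 4599.7 and 3389.6 HpM in rad50S hop1-loop2 pch2 and 1266 and 1197 HpM in rad50S. The shares without it were not computed. Without it, the other 66 hotspots from 40 to 50 kb averaged 139 and 101 HpM in rad50S hop1-loop2 pch2 and 171 and 182 HpM in rad50S. Leaving it out was a choice made after its values were seen.

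Of the 262 end hotspots, 125 were lower in rad50S hop1-loop2 pch2 than in rad50S (47.7%, against 43.9% of all hotspots) and 43 were higher (16.4%, against 21.3%). Its libraries were both below rad50S at 160 end hotspots (61.1%, against 54.0%) and both above at 56 (21.4%, against 27.8%). The median difference was -0.75 at the ends and -0.55 over all hotspots. With hotspots called on all 6 libraries, 107 of 254 end hotspots were lower and 51 were higher. The medians were then -0.46 at the ends and -0.42 over all 3524 hotspots. Scaled to hits in hotspots, 116 were lower and 59 higher, and centred on the median hotspot, 95 were lower and 78 higher, so the balance depended on the scale. The number of higher hotspots was 28 without replicate 2 of rad50S and 65 without replicate 2 of rad50S hop1-loop2 pch2. In sums per end, 16 of 25 ends were lower (64.0%, against 52.5% of windows) and 3 were higher (12%, against 18.3%), namely IV right, XIII right and XV left. The libraries did not overlap at 17 lower ends (57.9% of all windows) and 5 higher ends (24.8%). The lower count was 9 by edgeR, 3 when all hits of the window were summed, 8 without replicate 2 of rad50S and 10 without either rad50S hop1-loop2 library, and the higher count was 6 without replicate 2 of rad50S hop1-loop2 pch2.

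The sums of rad50S hop1-loop2 pch2 at the ends named for rad50S hop1-loop2 are given beside rad50S, whose libraries are shared between both comparisons. At II right there were 896 and 731 HpM in rad50S hop1-loop2 pch2, 1.30 times the rad50S mean, which did not pass the threshold (limma adjusted p = 0.186). At IV right there were 6185 and 4421 HpM in rad50S hop1-loop2 pch2, 2.87 times the rad50S mean. At XIII right there were 2172 and 1499 HpM, 2.42 times the rad50S mean. At XIV right there were 329 and 173 HpM, or 0.145 of the rad50S mean, and at XI left 746 and 463 HpM, or 0.242. Hotspots with the largest decreases were low in this genotype too, such as chrXVI:922093-922326 with 11.3 and 8.77 HpM and chrXIV:763151-763342 with 14.1 and 8.77 HpM in rad50S hop1-loop2 pch2. The strongest end hotspots of rad50S hop1-loop2 pch2 after chrIV:1438083-1438684 were chrXVI:915840-916892 with 1584 and 1324 HpM, chrV:40212-40718 with 1602 and 932 HpM, chrXIII:887314-888002 with 1228 and 836 HpM, and chrXV:1007797-1008404 with 807 and 576 HpM.

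Loss of PCH2 in the hop1-loop2 background was read from rad50S hop1-loop2 pch2 against rad50S hop1-loop2. Relative to all hotspots, the tips held more signal in both libraries that lacked PCH2. The ends as a whole held 4.11% ± 0.140 of hotspot signal in rad50S hop1-loop2 pch2 and 3.43% ± 0.141 in rad50S hop1-loop2 (SD, n = 2 each), a ratio of 1.20 ± 0.0639 (exact permutation p = 0.333). Within 30 kb the ratio was 1.54 ± 0.141, from 30 to 60 kb it was 1.13 ± 0.0524, and between 60 and 120 kb it was 0.938 ± 0.0270. By steps of 10 kb, the ratio of shares was 2.18 in the outermost step, then 1.57, 1.43, 1.29, 1.06 and 1.14, and it was 0.834 from 60 to 70 kb. As a share of all nuclear hits, in place of hits in hotspots, the ratio for all end hotspots was 0.991. On that scale the libraries overlapped, with 35447 and 25319.7 HpM in rad50S hop1-loop2 pch2 and 31565 and 29731 HpM in rad50S hop1-loop2. The libraries of rad50S hop1-loop2 pch2 had 84.3% and 63.2% of their hits in hotspots. In HpM, the 43 hotspots within 20 kb summed to 2638 and 1803 in rad50S hop1-loop2 pch2, 1612 and 1398 in rad50S hop1-loop2, and 2942 and 2762 in rad50S.

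At single hotspots the change was small for most members. Of the 262, 16 were higher in rad50S hop1-loop2 pch2 (6.11%, against 2.80% of all hotspots) and 10 were lower (3.82%, against 11.9%). Both of its libraries were above both rad50S hop1-loop2 libraries at 73 end hotspots (27.9%, against 16%) and below them at 54 (20.6%, against 45.0%). The median difference was 0.07 at the ends and -0.30 over all hotspots. Within 20 kb, 9 of 43 hotspots were higher and 1 was lower, and the median was 0.27. The numbers called depended on the scale and on single libraries. With values scaled to hits in hotspots, 51 end hotspots were higher and 8 lower (medians 0.35 at the ends and -0.01 over all hotspots). Counting each strand position once left 0 limma calls in either direction, among all hotspots too, with 33 end hotspots lower and 13 higher at an unadjusted p below 0.05 and medians of -0.31 at the ends and -0.33 over all. On recovered reads, edgeR called 56 end hotspots higher and 8 lower, and DESeq2 called 63 higher and 8 lower. Without replicate 2 of rad50S hop1-loop2 pch2, 54 were higher, and without its replicate 1, 29 were higher and 70 lower. Without either rad50S replicate 5 were higher and 1 was lower, without replicate 1 of rad50S hop1-loop2 3 were higher and 0 lower (24 and 11 at an unadjusted p below 0.05), and without its replicate 2 none was higher or lower (14 and 10 at an unadjusted p below 0.05).

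**Figure D4:**
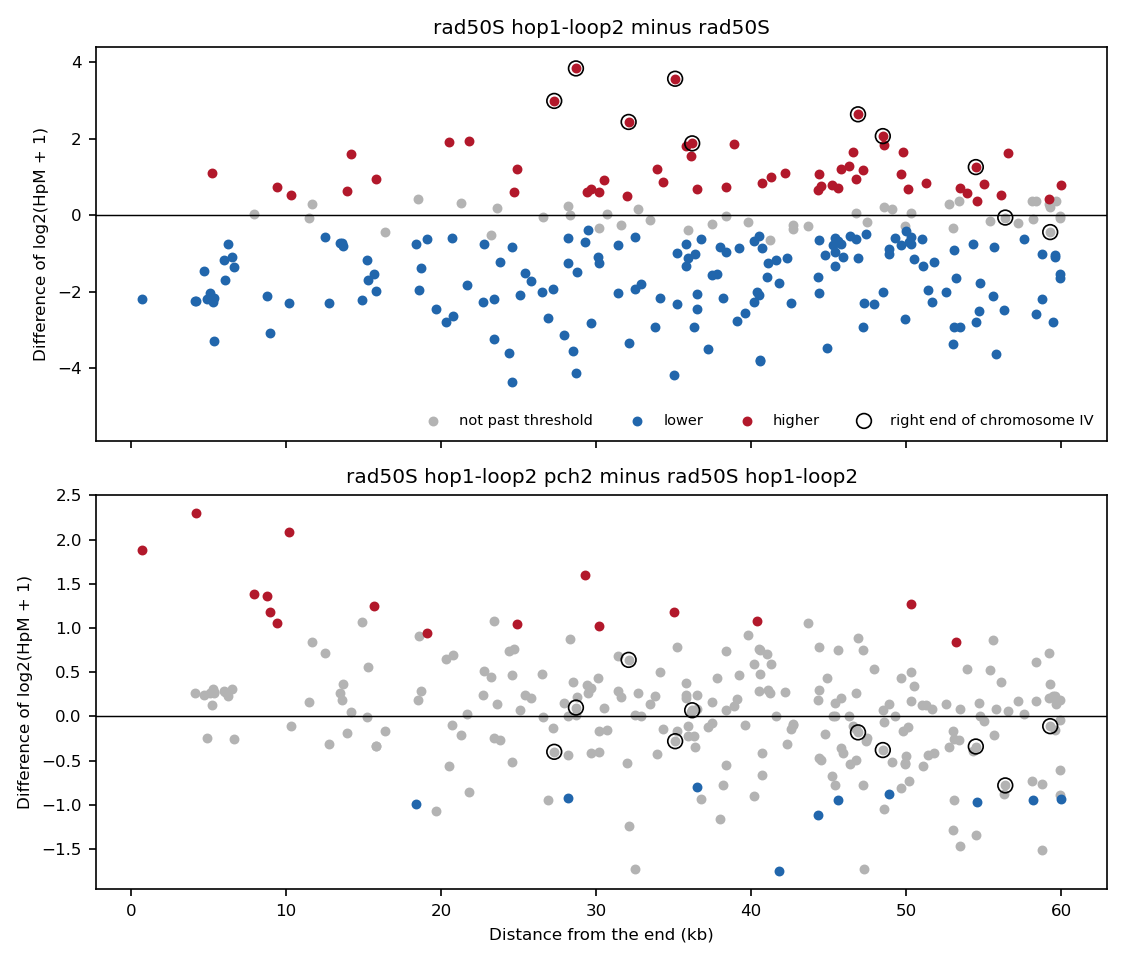
Difference of log2(HpM + 1) of each of the 262 end hotspots against distance from the end, for rad50S hop1-loop2 minus rad50S (upper) and rad50S hop1-loop2 pch2 minus rad50S hop1-loop2 (lower), coloured by limma call, with the right end of chromosome IV circled. In the upper panel 161 points are called lower (61.5%, against 43.2% of all hotspots) and 56 higher (21.4%, against 34.2%). In the lower panel 9 of the 16 points called higher lie within 20 kb of an end, as do 43 of all 262 points.

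The hotspot nearest to any end, chrXV:1053071-1053187, lies 0.726 kb from the right end of XV and had 65.3 and 47.7 HpM in rad50S hop1-loop2 pch2, 17.5 and 11.9 HpM in rad50S hop1-loop2, and 73.9 and 66.5 HpM in rad50S. The log2 difference between rad50S hop1-loop2 pch2 and rad50S hop1-loop2 was 1.88 ± 0.31 (limma adjusted p = 0.00912). The largest increase was at chrXVI:4087-4228, 4.16 kb from the left end of XVI, with 88.2 and 105 HpM in rad50S hop1-loop2 pch2, 22.0 and 15.9 HpM in rad50S hop1-loop2, and 91.7 and 91.5 HpM in rad50S (2.30 ± 0.27, limma adjusted p = 0.00443, and 0.0526 without replicate 2 of rad50S hop1-loop2). At both of these, rad50S hop1-loop2 was well below the other genotypes. At chrX:10164-10306, 10.2 kb from the left end of X and chosen after its values were seen, there were 83.5 and 75.0 HpM in rad50S hop1-loop2 pch2, 19.8 and 16.2 HpM in rad50S hop1-loop2, and 94.0 and 88.8 HpM in rad50S.

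Hotspots near the tips differed in how rad50S hop1-loop2 pch2 compared with rad50S. Within 20 kb, 19 of 43 were lower than in rad50S (44.2%, against 43.9% of all hotspots) and 5 were higher (11.6%, against 21.3%). The hotspots below were chosen for large increases over rad50S hop1-loop2 or for strength in rad50S. The strongest rad50S hotspot within 20 kb, chrXI:8786-9084, at 8.93 kb from the left end of XI, had 79.4 and 61.4 HpM in rad50S hop1-loop2 pch2, 28.0 and 32.4 HpM in rad50S hop1-loop2, and 251 and 279.8 HpM in rad50S. It was 2.33-fold higher in rad50S hop1-loop2 pch2 than in rad50S hop1-loop2 (1.18 ± 0.25, limma adjusted p = 0.0180) and stayed at 0.265 of rad50S. At chrXIII:7902-8028, 7.96 kb from the left end of XIII, there were 144 and 101 HpM in rad50S hop1-loop2 pch2, 44.0 and 47.7 HpM in rad50S hop1-loop2, and 40.4 and 49.8 HpM in rad50S (1.38 ± 0.27 over rad50S hop1-loop2, limma adjusted p = 0.0149). Here the libraries of rad50S hop1-loop2 and rad50S overlapped, and rad50S hop1-loop2 pch2 was above both. At chrV:29219-29410, 29.3 kb from the end, there were 259 and 206 HpM in rad50S hop1-loop2 pch2, 75.8 and 74.6 HpM in rad50S hop1-loop2, and 136 and 111 HpM in rad50S (1.60 ± 0.24 over rad50S hop1-loop2, limma adjusted p = 0.00720). The calls at chrXI:8786-9084, chrXIII:7902-8028 and chrV:29219-29410 were lost without either rad50S hop1-loop2 library, with limma adjusted p between 0.0652 and 0.176, and that at chrXI:8786-9084 without either rad50S library as well (0.0501 and 0.0511).

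**Figure D5:**
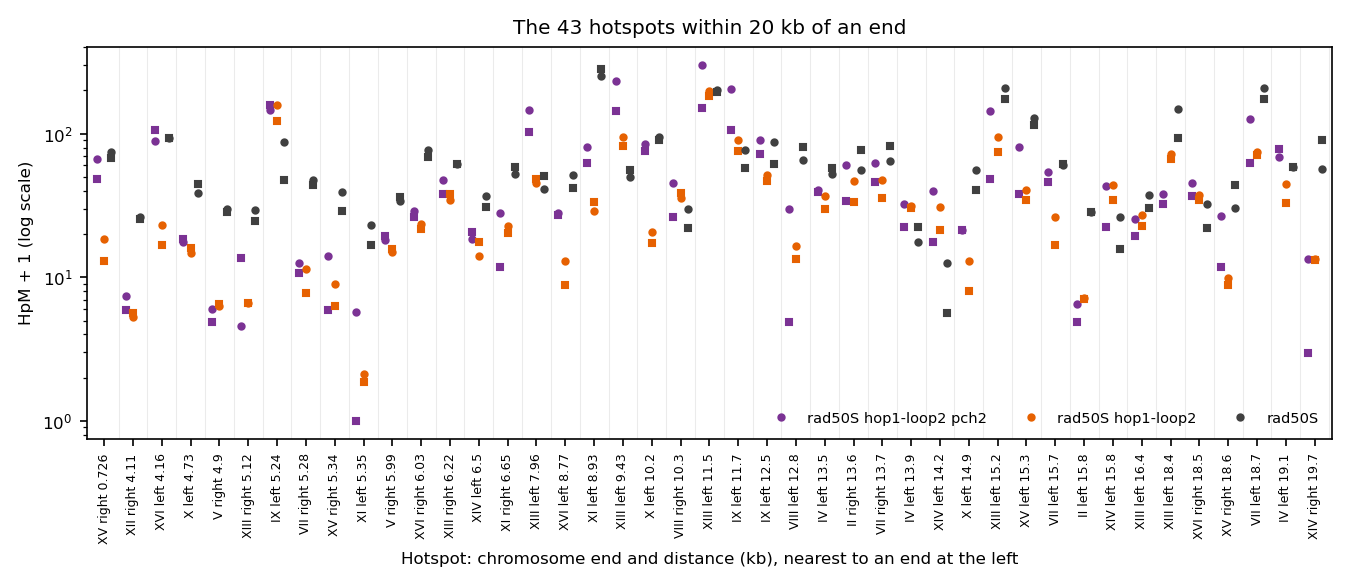
HpM + 1 (log scale) of the 43 hotspots within 20 kb of an end, ordered by distance, with circles for replicate 1 and squares for replicate 2. The rad50S hop1-loop2 points lie below the rad50S points at 33 of them, and the rad50S hop1-loop2 pch2 points lie above the rad50S hop1-loop2 points at 20.

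Of the 10 decreases in rad50S hop1-loop2 pch2 against rad50S hop1-loop2, 9 lay more than 20 kb from the tip, as did 219 of all 262 end hotspots (83.6%). At chrIX:44020-44502 there were 660.3 and 569 HpM in rad50S hop1-loop2 pch2, against 1345 and 1316 HpM in rad50S hop1-loop2 (log2 difference -1.12 ± 0.21, limma adjusted p = 0.0133). At chrXIV:54461-54719, 54.6 kb from the end, there were 224 and 145 HpM, against 338 and 371 HpM in rad50S hop1-loop2 (-0.97 ± 0.25, limma adjusted p = 0.0322). At chrXI:632477-632934, 58.2 kb from the end, there were 91.3 and 68.2 HpM, against 144 and 164 HpM (-0.95 ± 0.24, limma adjusted p = 0.0310). The exception among the 4 largest with a mean of at least 50 HpM was chrXIII:18304-18492 at 18.4 kb, with 37.1 and 31.2 HpM in rad50S hop1-loop2 pch2 and 71.5 and 65.5 HpM in rad50S hop1-loop2 (limma adjusted p = 0.0467, and 0.0767 when scaled to hits in hotspots). All 4 calls were lost without either rad50S hop1-loop2 library (limma adjusted p between 0.117 and 0.300). Those other than chrIX:44020-44502 were also lost without either rad50S library (between 0.0700 and 0.0731), and that at chrXIII:18304-18492 without replicate 2 of rad50S hop1-loop2 pch2 too (0.0539).

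In sums per end, both directions were rare. Of 25 ends, 2 were higher in rad50S hop1-loop2 pch2 than in rad50S hop1-loop2 (8.00%, against 6.93% of windows) and 2 were lower (8.00%, against 36.1%), The libraries did not overlap at 4 lower ends (56.4% of all windows) and 6 higher ends (13.9%). The left end of V had 3008 and 1982 HpM in rad50S hop1-loop2 pch2 and 1607 and 1418 HpM in rad50S hop1-loop2, a ratio of 1.65 (limma adjusted p = 0.0142). The left end of XV had 477 and 261 HpM in rad50S hop1-loop2 pch2 and 235 and 198 HpM in rad50S hop1-loop2, a ratio of 1.70 (limma adjusted p = 0.0387). The left ends of IX and XIV were lower, with ratios of 0.672 and 0.669 (limma adjusted p of 0.0340 and 0.0384). By limma 0 ends passed the threshold when any single rad50S or rad50S hop1-loop2 library was left out (at most 2 lower and 1 higher at an unadjusted p below 0.05), whereas 9 were higher without replicate 2 of rad50S hop1-loop2 pch2 and 9 lower without its replicate 1. On recovered reads edgeR called 15 ends higher and 2 lower.

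Signal outside hotspots differed between the rad50S hop1-loop2 pch2 libraries and the others at the ends too. In the outermost 10 kb, it was 8.80 and 28.9 HpM per kb in rad50S hop1-loop2 pch2, 4.63 and 4.28 HpM per kb in rad50S hop1-loop2, and 6.82 and 7.74 HpM per kb in rad50S. Over all hits in 10 kb bins, 52 of 156 end bins were higher in rad50S hop1-loop2 pch2 than in rad50S hop1-loop2 (33.3%, against 17.5% of all bins) and 2 were lower (1.28%, against 13%). Against rad50S, 46 end bins were higher (29.5%, against 30.1%) and 18 were lower (11.5%, against 30.3%). With the background outside hotspots subtracted from each library, 8 end hotspots were higher and 6 were lower in rad50S hop1-loop2 pch2 than in rad50S hop1-loop2, with a median of -0.04 at the ends and -0.39 over all hotspots, and 0.17 for the 43 hotspots within 20 kb.

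The right end of chromosome IX had no hotspot in the set. All hits within 60 kb of it summed to 731 and 1729 HpM in rad50S hop1-loop2 pch2, 278 and 292 HpM in rad50S hop1-loop2, and 262 and 287 HpM in rad50S. Of the hotspots called with the same limits on the rad50S hop1-loop2 pch2 libraries alone, 6 lay at this end. The strongest of them, chrIX:415571-415742 at 33.8 kb, had 98.5 and 64.3 HpM in rad50S hop1-loop2 pch2, 29.6 and 34.4 HpM in rad50S hop1-loop2, and 5.04 and 4.35 HpM in rad50S, and was chosen after its values were seen. The levels outside hotspots given for each library run beside the sums of all hits, and their part in those sums was not tested.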

How the data were processed

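CC-seq libraries of 3 genotypes (2 each, 6 h) were assigned by title. The authors used Bowtie2, run by TermMapper, against an SK1 assembly with added 2-micron, lambda and human sequence, and deposited RPM values (HpM, scaled to 1000000 nuclear hits) per position and strand. Every value was a whole multiple of 1 read within 0.01 reads (100.0% in each library), so reads were recovered. Handling of repeated sequence and duplicate reads is not given in the sources used here. Members, lists and tests were chosen with earlier results of these data known.

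Sums of HpM per hotspot, per window of about 60 kb and per 10 kb bin were analysed on the log2(HpM + 1) scale in limma 3.58.1, with Benjamini-Hochberg adjustment over all features of a kind. The fit of rad50S hop1-loop2 against rad50S used 4 libraries and the others all 6. Shares were compared by exact permutation over libraries. Named hotspots were the 6 largest decreases and increases of rad50S hop1-loop2 against rad50S and the 4 of rad50S hop1-loop2 pch2 against rad50S hop1-loop2 (adjusted p below 0.05, mean of at least 50 HpM, no overlap between libraries), the 5 strongest per genotype, the hotspot nearest to an end and the strongest within 20 kb in rad50S. Alternatives covered the pseudocount, a filter at 20 HpM, the scale, the calling threshold, single libraries, a replicate block, and count models of the recovered reads (edgeR 4.0.16, DESeq2 1.42.0). Fits were run in R 4.3.3 and sums in Python 3.11.15. The limma fits were also run on simulated reads, with 200 of 3569 hotspots changed and the same spread in all libraries. That setting does not cover the unequal background of the rad50S hop1-loop2 pch2 libraries. Spike-in Hop1 ChIP reads per chromosome were not used here.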

Additional observations from a re-analysis of the deposited data

Results flagged for a closer look

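At 4 chromosomes both rad50S hop1-loop2 libraries moved one way against rad50S at the right end and the other way at the left end. The log2 change of the right end minus that of the left end was 1.98 for chromosome II, 2.49 for IV, 1.63 for XIII and -0.76 for XVI, and these differences were not tested. At XVI the left end had a log2 change of 0.12 that did not pass the threshold, and the right end one of -0.64.

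Of 243 hotspots called on the rad50S hop1-loop2 pch2 libraries alone within 60 kb of these ends, 49 overlapped no hotspot of the set. At 37 of the 49, both rad50S hop1-loop2 pch2 libraries were above both rad50S libraries. The 49 summed to 1518 HpM in rad50S hop1-loop2 pch2, 793 HpM in rad50S hop1-loop2 and 474 HpM in rad50S (means of 2 libraries), and the strongest had 86.6 HpM in rad50S hop1-loop2 pch2. They were called on the libraries in which they are high, so these values are a description.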

How the results depend on the processing

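Values that differed from those reported are given by setting, and where none of the settings shows it by construction, the cause was not tested. A higher calling threshold of 0.4 HpM per bp left 158 end hotspots, of which 94 were lower and 37 higher in rad50S hop1-loop2 than in rad50S (share ratio 0.836), 74 were lower in rad50S hop1-loop2 pch2 than in rad50S, and 8 were higher in rad50S hop1-loop2 pch2 than in rad50S hop1-loop2. With each strand position counted once, the share ratios were 0.854, 0.861 and 1.01 in the order rad50S hop1-loop2 against rad50S, rad50S hop1-loop2 pch2 against rad50S, and rad50S hop1-loop2 pch2 against rad50S hop1-loop2. In this setting 20 end hotspots were higher in rad50S hop1-loop2 pch2 than in rad50S, and against rad50S hop1-loop2 limma called 0 hotspots higher, 0 lower and 0 ends higher (at an unadjusted p below 0.05, 13 hotspots, 33 hotspots and 0 ends). It turned the sign at chrIX:44020-44502 for rad50S hop1-loop2 pch2 against rad50S hop1-loop2 (0.02) and at chrXVI:48802-49453 for rad50S hop1-loop2 against rad50S (-0.01). Without the right end of chromosome IV, a setting chosen after seeing the data, the share ratios were 0.652, 0.822 and 1.26 in the same order. As a share of all nuclear hits the ratio was 0.791 for rad50S hop1-loop2 pch2 against rad50S and 0.991 against rad50S hop1-loop2, where the libraries of the second comparison overlapped.

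For rad50S hop1-loop2 pch2 against rad50S, 71 hotspots were higher by edgeR, 70 by DESeq2 and 78 after centring on the median hotspot. Summing all hits of a window gave 3 ends lower and 7 higher, and edgeR gave 9 lower and 7 higher. For rad50S hop1-loop2 pch2 against rad50S hop1-loop2, 56 hotspots were higher by edgeR, 63 by DESeq2, 51 when scaled to hits in hotspots and 42 after centring. Subtracting the background, chosen after seeing the data, gave 8 higher and 6 lower. Summing all hits of a window gave 19 ends higher and 0 lower (0 lower at an unadjusted p below 0.05), and edgeR gave 15 higher.

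Leaving out 1 library at a time gave 137 to 162 hotspots lower and 42 to 57 higher, 15 to 18 ends lower and 3 higher, and share ratios of 0.769 to 0.815 in rad50S hop1-loop2 against rad50S. For rad50S hop1-loop2 pch2 against rad50S it gave 95 to 162 hotspots lower and 28 to 65 higher, 8 to 18 ends lower and 2 to 6 higher, and ratios of 0.925 to 0.971. Against rad50S hop1-loop2 it gave 0 to 70 hotspots lower and 0 to 54 higher, 0 to 9 ends lower and 0 to 9 higher, and ratios of 1.16 to 1.23. Where this left a genotype with 1 library, that library was assumed to vary like the others.

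Replicate numbers were shared between genotypes, and deviations of same-numbered replicates correlated by 0.315 (rad50S hop1-loop2 with rad50S), 0.0855 (rad50S hop1-loop2 pch2 with rad50S) and 0.107 (rad50S hop1-loop2 pch2 with rad50S hop1-loop2) over all hotspots. No label says that a number marks a shared batch or day, so the block was not used for the reported values. With a replicate block, 167 hotspots were lower and 59 higher in rad50S hop1-loop2 than in rad50S, 130 and 43 in rad50S hop1-loop2 pch2 than in rad50S, and 11 and 19 in rad50S hop1-loop2 pch2 than in rad50S hop1-loop2. For the last of these, 0 ends were lower (2 at an unadjusted p below 0.05) and 81 of the 10 kb bins were higher, the bins' block having been chosen after seeing the data.

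Over 30 values at named hotspots and 554 recomputations, 504 kept their direction and side of the threshold, 47 lost the call, 1 gained it and 2 turned sign. Depth limits rad50S hop1-loop2 pch2 most, since its replicate 2 held 1026669 hits.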
